A study of Homo sapiens with 6 samples.

Results

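Collagens are matrix proteins built from chains that wind around each other in trimers, and each chain is the product of its own COL gene. The genes described here are the protein-coding genes whose symbol is COL, digits, A, digits, with a deposited RPKM above 0 in all 6 libraries. RPKM is reads per kilobase of gene, scaled by the library size that the authors used. The rule found 33 genes among 57773 gene IDs, of which 52338 had a symbol. The name alone fitted 44 genes, and 11 of them were at 0 in at least 1 library. RPE1 cells, an immortalised human line from the retinal pigment epithelium, were given 2.5 µM Nutlin-3 for 24 h in 3 libraries and the solvent DMSO for 24 h in 3 libraries. Nutlin-3 keeps MDM2 from binding p53, so that p53 builds up, and the series was made to find genes that p53 controls. No other agent or allele was named, all cells were grown in DMEM with fetal bovine serum, and poly(A) RNA was sequenced from stranded libraries. The labels speak of triplicates without saying whether these were separate cultures, and the p-values therefore rest on a spread among libraries that may be only technical.

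Collagen classes differ in what their trimers build. Type IV chains form the sheet-like network of basement membranes, such as the one on which the retinal pigment epithelium rests. Fibrillar chains form ropes, short-chain network collagens form lattices, type VI forms beaded filaments, type VII anchors basement membranes to the tissue below, and FACIT collagens (fibril-associated, with interrupted triple helices) sit on fibrils. Transmembrane collagens stay in the cell membrane, and multiplexins carry sugar chains and lie in basement membranes.

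The type IV genes lie in pairs with their starts back to back, and the sequence before the start is shown for a gene of each pair, since the members of each pair are compared below. COL11A1 is added as the fibrillar gene with the largest change. The sequences are RefSeq windows on GRCh38.p14 of up to 250 bases that end at the base before the start, each in the direction of its gene. Capitals mark CCAAT, the letters of the CCAAT box, and GGGCGG, the letters of the GC box, both also as their reverse complements ATTGG and CCGCCC. The COL11A1 window is chr1:103108523-103108772 on the minus strand, that of COL4A3 is chr2:227164374-227164623 on the plus strand, and that of COL4A5 is chrX:108439588-108439837 on the plus strand. For COL4A1 the whole stretch up to the start of COL4A2 is shown, chr13:110307158-110307283 on the minus strand.
COL4A1: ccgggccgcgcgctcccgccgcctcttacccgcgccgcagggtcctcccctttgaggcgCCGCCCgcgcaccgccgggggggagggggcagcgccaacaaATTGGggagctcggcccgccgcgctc
COL4A3: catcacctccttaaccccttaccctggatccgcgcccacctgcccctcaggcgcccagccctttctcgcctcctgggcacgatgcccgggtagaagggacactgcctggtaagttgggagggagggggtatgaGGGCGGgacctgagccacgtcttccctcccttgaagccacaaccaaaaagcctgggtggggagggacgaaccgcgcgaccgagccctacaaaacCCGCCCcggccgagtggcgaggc
COL4A5: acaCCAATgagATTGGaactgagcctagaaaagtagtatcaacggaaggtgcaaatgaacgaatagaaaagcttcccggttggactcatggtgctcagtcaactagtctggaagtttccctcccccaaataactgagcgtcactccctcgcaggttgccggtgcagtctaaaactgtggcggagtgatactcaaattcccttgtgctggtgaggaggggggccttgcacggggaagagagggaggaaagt
COL11A1: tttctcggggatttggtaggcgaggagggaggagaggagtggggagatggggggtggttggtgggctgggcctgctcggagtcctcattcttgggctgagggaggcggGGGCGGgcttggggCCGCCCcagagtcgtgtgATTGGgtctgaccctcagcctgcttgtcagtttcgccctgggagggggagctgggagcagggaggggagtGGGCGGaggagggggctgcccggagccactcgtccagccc
The RefSeq starts were 127 bases apart for COL4A1 and COL4A2 and 419 for COL4A3 and COL4A4. For COL4A5 and COL4A6 they were 380 bases apart, or 1416 with another start of COL4A6. G and C made up 80.2% of the stretch shown for COL4A1, 66.4% of that for COL4A3, 51.2% of that for COL4A5 and 68.8% of that for COL11A1.

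A window of 250 bases was found for 25 of the 33 genes, and not for COL1A1, COL1A2, COL5A2, COL6A1, COL6A5, COL8A1, COL14A1 and COL20A1. Of the 25 genes, 12 are among those that rose below. GGGCGG, on either strand, was in the windows of 18 of the 25 genes, and in those of 10 of the 12, against 46.2% of 27305 genes with a window. CCAAT, on either strand, was in 8 of the 25 and 5 of the 12, against 37.0% of all. TATAAA, on either strand, was in 5 of the 25 and 2 of the 12, against 13% of all. The p53 half-site, searched by its consensus without mismatch, was in 1 of the 25, COL17A1, and in 0 of the 12, against 6.80% of all. The windows of COL4A1 and COL4A2 share 126 bases and those of COL4A3 and COL4A4 share 82. Those of COL4A5 and COL4A6 share 121, or 0 with the other start of COL4A6. A site in a shared stretch can thus count for both genes of a pair. These matches of letters can overlap each other and describe the windows only.

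The libraries held between 31.2 and 36.5 M recovered reads in Nutlin-3 and between 28.2 and 40.8 M in DMSO. CDKN1A, a direct p53 target that blocks cell cycle kinases, was at 57.8, 62.0 and 61.8 RPKM in Nutlin-3, against 7.88, 8.38 and 8.81 in DMSO. MKI67, a gene of dividing cells, was at 7.18 to 7.85 RPKM in Nutlin-3 and 26.8 to 28.2 in DMSO. Of 13 markers of the retinal pigment epithelium, 4 were above a level of 1 read per kb of exon and M reads (MITF, OTX2, RDH5 and MERTK), RPE65 had 0 to 2 reads per library and TTR was at 0. Their summed level was 22.1 to 23.1 in Nutlin-3 and 21.3 to 23.2 in DMSO, in which RDH5 rose 1.58 times (adjusted p = 0.000629, limma) and OTX2 fell to 81.9% of the DMSO mean (adjusted p = 0.0410). Summed levels were 138 to 146 in Nutlin-3 and 80.5 to 87.2 in DMSO for 5 epithelial markers, and 937 to 989 in Nutlin-3 and 943 to 1032 in DMSO for 7 mesenchymal or fibroblast ones. VIM made up most of the mesenchymal sum and did not pass (adjusted p = 0.246, limma), while THY1 rose 1.33 times (adjusted p = 0.000265) and CDH2 1.28 times (adjusted p = 0.00118). Of 3 leukocyte markers CD68 alone was above a level of 1 and rose 1.23 times (adjusted p = 0.00495, limma), with a summed level of 29.7 to 32.9 in Nutlin-3 and 25.0 to 25.4 in DMSO, and the endothelial markers CDH5 and VWF summed to 0.0188 to 0.0274 in Nutlin-3 and 0.0137 to 0.0238 in DMSO. On the mesenchymal or fibroblast list PDGFRB, above a level of 1 as well, did not pass (1.17 times, adjusted p = 0.0841, limma). DCN, with 3 to 16 reads, and LUM, with 0 to 6 reads, both of that list, were near 0. Of 5 epithelial markers KRT8 and KRT18 alone were above a level of 1, and both rose, 1.68 times (adjusted p = 0.000148, limma) and 1.74 times (adjusted p = 0.000410). The part of the markers that moved in the collagen results was not tested. In bulk RNA, fewer cells of a kind and less RNA per cell cannot be told apart.

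Collagen transcripts took a larger share of the reads in Nutlin-3. They made up 0.288%, 0.283% and 0.274% of recovered reads in Nutlin-3, against 0.187%, 0.204% and 0.208% in DMSO. The groups did not overlap, and the means were 0.281% ± 0.00714 in Nutlin-3 and 0.200% ± 0.0114 in DMSO (SD, n = 3 each, 2-sided exact permutation p = 0.1, the smallest that 3 against 3 can give). Gene by gene, 20 of the 33 were abundant enough to test with limma on log2(RPKM + 0.01). At an adjusted p under 0.05, 16 of the 20 rose, 0 fell and 4 did not pass. At an unadjusted p under 0.05 also 0 were lower, in limma on RPKM and in limma voom on recovered reads alike. The share of all genes lower at that cut-off was not counted, so how unusual this is cannot be told. Over all 26155 genes tested, 16.0% rose and 14.6% fell, and over the 13228 protein-coding ones, 24.7% rose and 22.0% fell. The median log2 fold change was 0.52 over the 20 collagen genes, against -0.0066 over all genes tested. Rises of at least 1 on the log2 scale were seen in 4 collagen genes, and 1.06% of all genes rose by as much. Another 6 rose by between 0.5 and 1 and 6 by less. The gene with the lowest mean among the 20 had 32.0 reads per library and that with the highest 17935.

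**Figure D1:**
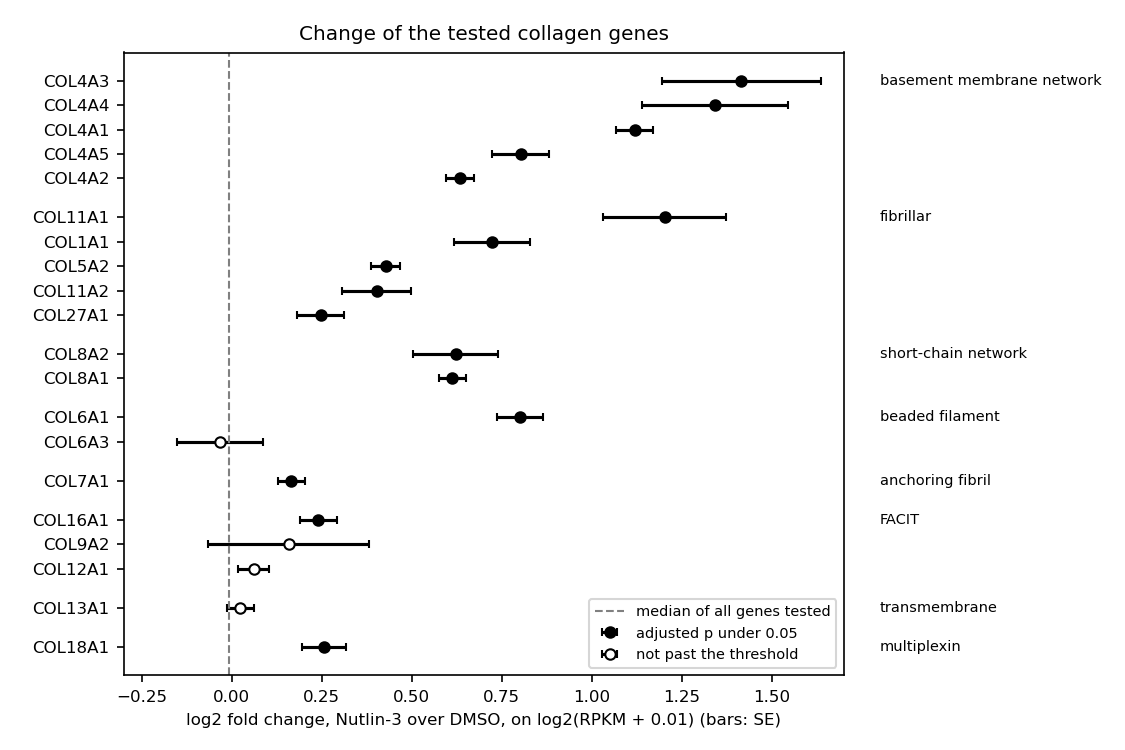
Log2 fold change of the 20 tested collagen genes, Nutlin-3 over DMSO, on log2(RPKM + 0.01), grouped by class, with bars for the SE. Filled points passed an adjusted p of 0.05, and the dashed line is the median of all genes tested (-0.0066). COL4A3, COL4A4, COL11A1 and COL4A1 lie farthest to the right, and the 4 open points lie between -0.033 and 0.16.

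Levels of different genes are compared as recovered reads per kb of merged exon and M reads, called the exon-based level here. The RPKM as deposited divides by the whole gene with its introns and ranks long genes low. In Nutlin-3 the highest exon-based levels were those of COL8A1 at 55.2 ± 0.681 and COL4A2 at 33.8 ± 0.464, ahead of COL4A1 and COL12A1, both at 29.4 (SD, n = 3 each). In DMSO they were those of COL8A1 at 36.0 ± 1.52, COL12A1 at 28.2 ± 1.5 and COL4A2 at 21.8 ± 0.954 (SD, n = 3 each). COL5A2 at 14.2 ± 0.607 and COL4A1 at 13.5 ± 0.809 followed, and the ranges of these neighbours overlapped. COL7A1 stood at 12.5 ± 0.253, COL13A1 at 11.7 ± 0.190 and COL1A1 at 5.55 ± 0.706. The order depends on the length used. Per kb of the longest coding transcript, COL4A2 led with 101 in Nutlin-3 and 64.7 in DMSO, ahead of COL8A1 with 91 in Nutlin-3 and 59.4 in DMSO.

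**Figure D2:**
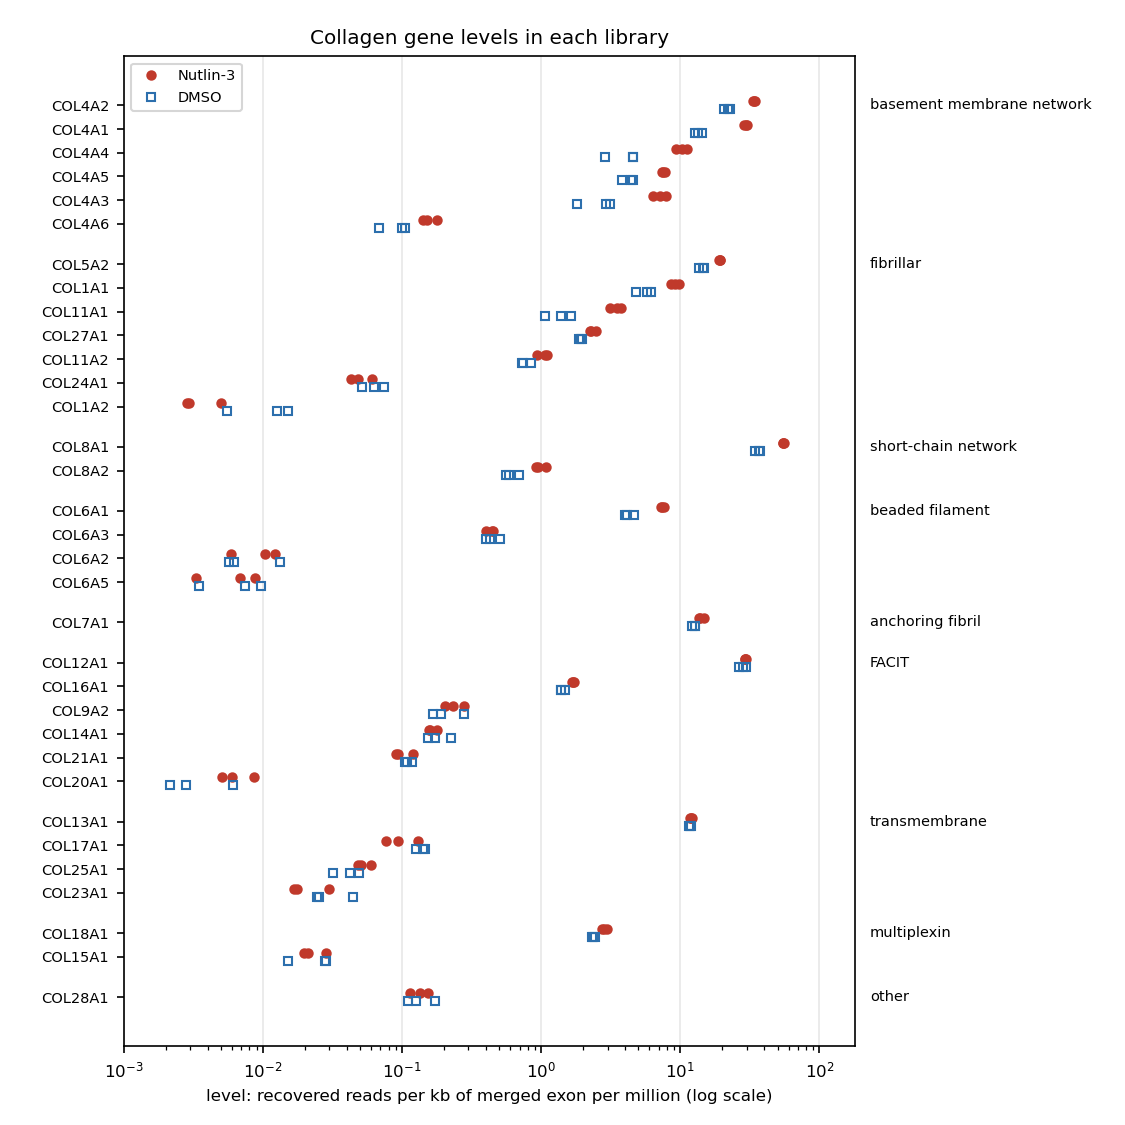
Exon-based level of the 33 collagen genes in each library, in recovered reads per kb of merged exon and M reads on a log scale, by class. Filled red circles are the 3 Nutlin-3 libraries and open blue squares the 3 DMSO libraries. COL8A1, COL4A2, COL4A1 and COL12A1 are at the top of the scale, and the members with few reads, such as COL1A2 and COL6A2, lie near 0.01.

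In type IV collagen, the basement membrane network, all 5 tested genes rose, with a median log2 fold change of 1.12, the highest of the class medians, and the sixth, COL4A6, was too low for that test. COL4A1 (ENSG00000187498), a chain of the type IV trimer found in most basement membranes, had exon-based levels of 29.9, 29.7 and 28.6 in Nutlin-3, against 12.7, 13.4 and 14.3 in DMSO. Each Nutlin-3 library was far above each DMSO library. The log2 fold change was 1.12 (SE 0.0514, adjusted p = 0.000200, limma). COL4A2 (ENSG00000134871), the partner of COL4A1 in that trimer, had levels of 33.9, 34.3 and 33.4 in Nutlin-3, against 20.7, 22.0 and 22.6 in DMSO. It was the more abundant of the pair in all 6 libraries and rose by 0.63 (SE 0.0391, adjusted p = 0.000400).

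COL4A3, COL4A4 and COL4A5 encode the chains of another type IV trimer, that of the kidney glomerulus, and mutations in them cause Alport syndrome. COL4A3 (ENSG00000169031) had exon-based levels of 7.84, 7.16 and 6.40 in Nutlin-3, against 1.81, 2.95 and 3.14 in DMSO. It had the largest change of the tested collagen genes, a log2 fold change of 1.42 (SE 0.221, adjusted p = 0.00731, limma), or 2.71 times the DMSO mean. COL4A4 (ENSG00000081052) had levels of 11.2, 10.3 and 9.29 in Nutlin-3, against 2.88, 4.58 and 4.60 in DMSO. DMSO replicate 1 was the low library for both genes, and Nutlin-3 replicate 1 the high one. The log2 fold change of COL4A4 was 1.34 (SE 0.202, adjusted p = 0.00646). Leaving out each library in turn gave 1.18 to 1.55 for COL4A3 and 1.13 to 1.45 for COL4A4, with adjusted p of at most 0.0323.

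COL4A5 (ENSG00000188153) had exon-based levels of 7.78, 7.54 and 7.44 in Nutlin-3, against 3.83, 4.39 and 4.58 in DMSO. Its groups were well apart, with a log2 fold change of 0.80 (SE 0.0793, adjusted p = 0.00162, limma). COL4A6 (ENSG00000197565), which shares trimers with COL4A5 in smooth muscle and some epithelial basement membranes, had 44, 59 and 40 reads in Nutlin-3, against 41, 19 and 30 in DMSO. Its levels were 0.150, 0.178 and 0.142 in Nutlin-3, against 0.105, 0.0687 and 0.0997 in DMSO, far under those of the other type IV genes. Tested on reads with limma voom, it rose by 0.77 on the log2 scale (SE 0.207, adjusted p = 0.00478), where 25.5% of 20854 genes tested rose and 23.9% fell.

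**Figure D3:**
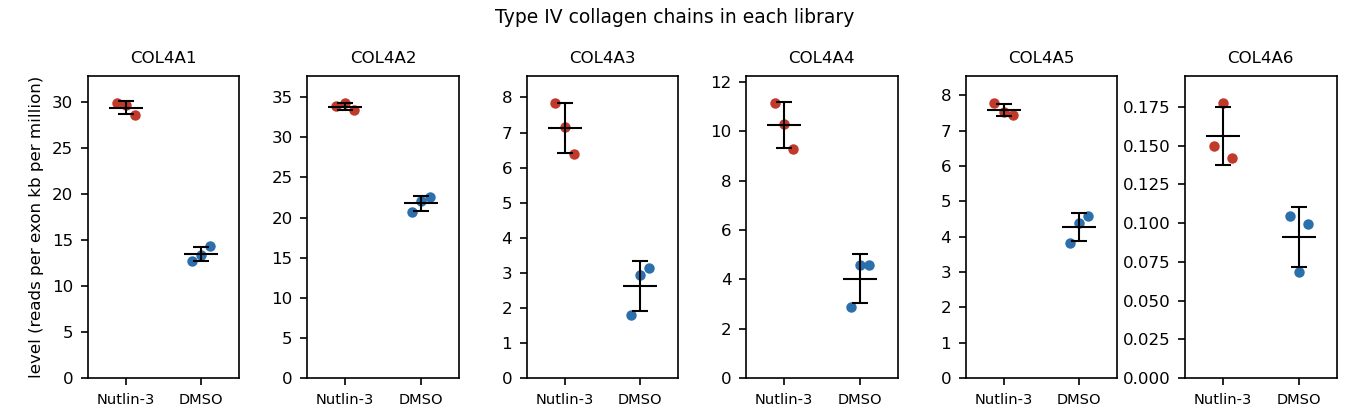
Exon-based level of the 6 type IV collagen genes in each library, with Nutlin-3 left and DMSO right, and the mean and SD in black. Axes start at 0 and differ between genes. In each of the 6 genes the 3 Nutlin-3 libraries lie above the 3 DMSO libraries.

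Summed over the 6 genes, the type IV level was 88.4 ± 2.86 in Nutlin-3 and 46.3 ± 3.76 in DMSO (SD, n = 3 each), 1.91 times as high (2-sided exact permutation p = 0.1). Sums over the other classes were 35.2 ± 1.08 in Nutlin-3 and 23.9 ± 1.44 in DMSO for the fibrillar genes, and 56.1 ± 0.669 in Nutlin-3 and 36.7 ± 1.56 in DMSO for the short-chain ones. The FACIT sums, 31.6 ± 0.155 in Nutlin-3 and 30.1 ± 1.49 in DMSO, overlapped. The make-up of the type IV sum differed between groups. COL4A2 held 38.3% ± 0.899 of it in Nutlin-3 and 47.2% ± 1.85 in DMSO, and COL4A1 held 33.3% ± 0.289 in Nutlin-3 and 29.2% ± 1.01 in DMSO. COL4A3, COL4A4 and COL4A5 together held 28.2% ± 1.19 in Nutlin-3 and 23.4% ± 2.79 in DMSO. None of these groups overlapped, and for each the exact permutation p was 0.1, the smallest possible. Reads of COL4A1, COL4A2, COL4A4 and COL4A6 were recovered from ratios between libraries and could be too low by a whole factor, which would move these sums and shares. DMSO replicate 1 stood apart in the last of these shares, with 20.2% against 25.2% and 25.0% in the other DMSO libraries.

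All 5 tested fibrillar genes rose, with a median log2 fold change of 0.43, and COL11A1 stood out among them. COL11A1 (ENSG00000060718), a chain of the minor fibrillar collagen XI, had exon-based levels of 3.72, 3.49 and 3.10 in Nutlin-3, against 1.06, 1.38 and 1.64 in DMSO. Each Nutlin-3 library was above each DMSO library, with a log2 fold change of 1.20 (SE 0.170, adjusted p = 0.00527, limma). Its partner COL11A2 had 1.11, 0.941 and 1.06 in Nutlin-3, against 0.850, 0.732 and 0.737 in DMSO. It rose by 0.40 (SE 0.0958, adjusted p = 0.0295). That call was lost without Nutlin-3 replicate 1, Nutlin-3 replicate 3, DMSO replicate 2 or DMSO replicate 3, with adjusted p between 0.0301 and 0.0916 over the 6 omissions.

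COL1A1 (ENSG00000108821), a chain of type I collagen, the main collagen of bone and skin, had exon-based levels of 9.73, 9.12 and 8.58 in Nutlin-3, against 4.78, 5.72 and 6.16 in DMSO. It rose by 0.72 on the log2 scale (SE 0.107, adjusted p = 0.00604, limma). COL1A2, whose chain joins that of COL1A1 in type I collagen, had 1, 2 and 1 reads in Nutlin-3, against 6, 5 and 2 in DMSO, while COL1A1 had 1673 to 3205. On the exon-based scale COL1A2 was the only one of the 33 members with all Nutlin-3 values under all DMSO values, and it was too low to test. COL5A2 (ENSG00000204262), a type V chain that joins type I fibrils, was the highest fibrillar gene, with 19.1, 19.4 and 19 in Nutlin-3, against 13.5, 14.7 and 14.4 in DMSO. It rose by 0.43 (SE 0.0415, adjusted p = 0.00152). COL5A1, whose chain it joins in type V collagen, had 0 to 2 reads per library. COL27A1, at 2.23 to 2.46 in Nutlin-3 and 1.88 to 1.98 in DMSO, rose by 0.25 (SE 0.0649, adjusted p = 0.0403). That call was lost without any 1 of the 6 libraries, with adjusted p from 0.0734 to 0.109. COL24A1, with 13 to 21 reads in Nutlin-3 and 18 to 23 in DMSO, did not pass on reads (adjusted p = 0.422, limma voom). COL2A1, COL3A1 and COL5A3 were at 0 in at least 1 library and had at most 3 reads in any.

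The short-chain network collagen COL8A1 (ENSG00000144810), found in Bruch's membrane and in the corneal Descemet's membrane, was the most abundant collagen gene per exon length. Its exon-based levels were 54.5, 55.9 and 55.1 in Nutlin-3, against 34.3, 36.6 and 37.2 in DMSO. Replicates lay close together, and it rose by 0.61 on the log2 scale (SE 0.0380, adjusted p = 0.000404, limma). COL8A2 (ENSG00000171812), whose chain can join that of COL8A1, had 0.942, 0.915 and 1.08 in Nutlin-3, against 0.557, 0.697 and 0.588 in DMSO. It rose by 0.62 (SE 0.118, adjusted p = 0.0141), with 89 to 153 reads per library. COL10A1, the third gene of the class and a marker of growth-plate cartilage, had 1 read in each library except DMSO replicate 3, which had 0.

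Among the genes of the beaded filament collagen VI, COL6A1 (ENSG00000142156) had exon-based levels of 7.61, 7.44 and 7.29 in Nutlin-3, against 3.99, 4.15 and 4.66 in DMSO. It rose by 0.80 (SE 0.0647, adjusted p = 0.000857, limma), or 1.75 times. COL6A3, a long chain of the same filament, had 0.447, 0.452 and 0.402 in Nutlin-3, against 0.401, 0.431 and 0.506 in DMSO, and its groups overlapped. Its log2 fold change was -0.033 (SE 0.119, adjusted p = 0.875). COL6A2, whose chain type VI trimers also hold, had 1, 2 and 2 reads in Nutlin-3 and 3, 1 and 1 in DMSO. COL6A5 had 1, 3 and 2 reads in Nutlin-3 and 3, 1 and 3 in DMSO, so neither could be tested.

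In the remaining classes, the 6 genes tested with limma had log2 fold changes of at most 0.26. COL7A1, the anchoring fibril gene, had exon-based levels of 14.7, 13.8 and 13.6 in Nutlin-3, against 12.2, 12.7 and 12.6 in DMSO. It rose by 0.17 (SE 0.0377, adjusted p = 0.0258, limma), a call lost without Nutlin-3 replicate 2 or any 1 DMSO library and under quantile normalization, with adjusted p up to 0.118. COL12A1, the FACIT gene with the highest level, had 29.2, 29.5 and 29.3 in Nutlin-3, against 26.6, 28.3 and 29.6 in DMSO. DMSO replicate 3 lay above the Nutlin-3 libraries, and the log2 fold change was 0.061 (SE 0.0436, adjusted p = 0.368). COL16A1, another FACIT gene, was at 1.66 to 1.71 in Nutlin-3 and 1.39 to 1.49 in DMSO. It rose by 0.24 (SE 0.0514, adjusted p = 0.0210), a call lost without any 1 library other than DMSO replicate 1, with adjusted p up to 0.0760. COL9A2, with 27 to 42 reads in Nutlin-3 and 21 to 38 in DMSO, did not pass (log2 fold change 0.16, SE 0.223, adjusted p = 0.644).

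COL13A1, a transmembrane collagen of cell-matrix junctions, had exon-based levels of 11.9, 11.7 and 12.1 in Nutlin-3, against 11.9, 11.5 and 11.7 in DMSO. The groups overlapped, and the log2 fold change was 0.023 (SE 0.0378, adjusted p = 0.690, limma). COL18A1, the multiplexin from which endostatin is cut, had 2.74, 2.83 and 2.99 in Nutlin-3, against 2.32, 2.34 and 2.45 in DMSO. It rose by 0.26 (SE 0.0611, adjusted p = 0.0300), a call lost without any 1 of the 6 libraries, with adjusted p from 0.0528 to 0.0917. Of its exon length 16.4% overlaps SLC19A1 on the opposite strand, and whether counting used strand is not given in the sources used here.

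Among the 13 members under the filter of 0.02 RPKM, mean reads per library ran from 1.67 to 50.2, and 7 of them could be tested on reads with limma voom. COL4A6 rose and the other 6 did not pass. COL17A1, a hemidesmosome collagen of epithelia, had 17, 33 and 20 reads in Nutlin-3, against 42, 31 and 29 in DMSO, with a log2 fold change of -0.47 and an adjusted p of 0.102. COL28A1, the only member outside these classes, had 28, 27 and 31 reads in Nutlin-3, against 31, 25 and 37 in DMSO (adjusted p = 0.994). COL14A1, COL21A1, COL24A1 and COL25A1 had adjusted p between 0.330 and 0.652. The other 6, COL1A2, COL6A2, COL6A5, COL15A1, COL20A1 and COL23A1, had at most 8 reads in any library. These 6 were too low for both fits, so differences in them were not tested. The line between members and the rest runs through these values. COL20A1 had 3, 2 and 2 reads in Nutlin-3 and 1, 2 and 1 in DMSO and was in, while COL10A1 missed a read in 1 library and was out.

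Partner chains were compared within each library by the log2 ratio of their exon-based levels, which no scaling between libraries can move. Of 10 pairs, 8 had both chains above 0 in all 6 libraries. With 3 against 3 libraries the exact permutation p cannot be under 0.1, or 0.16 after Benjamini-Hochberg adjustment over the 8 pairs, so no pair could pass. COL4A1 over COL4A2 was -0.20 ± 0.0214 in Nutlin-3 and -0.69 ± 0.0323 in DMSO, a difference of 0.49 with no overlap (exact permutation p = 0.1). COL4A3 over COL4A4 was -0.52 ± 0.0145 in Nutlin-3 and -0.62 ± 0.0597 in DMSO, a difference of 0.096 (p = 0.1, exact permutation). The first ratio was higher in each Nutlin-3 library than in each DMSO library, and so was the second, by less.

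COL11A1 over COL11A2 was 1.73 ± 0.172 in Nutlin-3 and 0.80 ± 0.431 in DMSO, a difference of 0.93 (exact permutation p = 0.1). In the beaded filament, COL6A3 over COL6A1 was -4.10 ± 0.0713 in Nutlin-3 and -3.26 ± 0.0555 in DMSO, a difference of -0.84 (exact permutation p = 0.1). Both pairs had groups that did not overlap. COL8A1 over COL8A2 was 5.82 ± 0.131 in Nutlin-3 and 5.88 ± 0.145 in DMSO and overlapped (exact permutation p = 0.5). COL4A5 over COL4A6 was 5.61 ± 0.172 in Nutlin-3 and 5.57 ± 0.404 in DMSO and overlapped too (exact permutation p = 1). COL1A1 over COL1A2 differed by 2.28 (exact permutation p = 0.1) and COL6A1 over COL6A2 by 0.59 (exact permutation p = 0.5), both resting on 1 to 6 reads of the second chain.

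**Figure D4:**
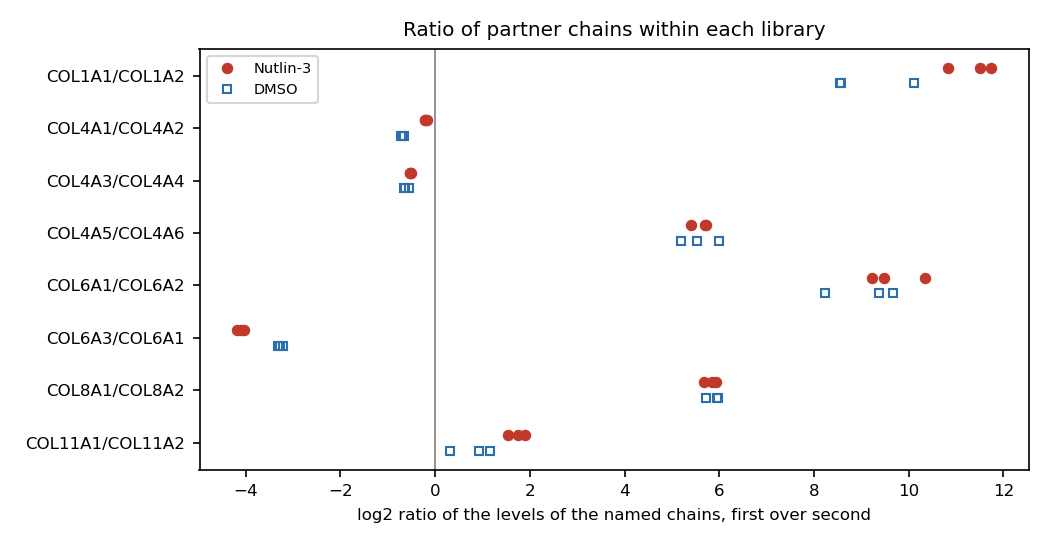
Log2 ratio of the exon-based levels of the named chains, first over second, in each library, for the 8 pairs with both chains above 0 in all 6 libraries. Filled red circles are Nutlin-3 and open blue squares DMSO. COL4A1/COL4A2 and COL11A1/COL11A2 lie farther right in Nutlin-3, COL6A3/COL6A1 lies farther left, and COL8A1/COL8A2 and COL4A5/COL4A6 overlap.

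Libraries ranked alike in many of the members. In each of the 16 genes that rose the groups did not overlap, which a call on the same 6 libraries makes likely in advance. Over the 33 members the Nutlin-3 libraries lay above all DMSO libraries in 17 and under them in 1, while over 15100 protein-coding genes above 0 in all 6 libraries these shares were 31.1% and 29.5%. DMSO replicate 1, which has the most reads of the 6 libraries, was the lowest DMSO library in 13 of the 16 genes that rose. Nutlin-3 replicate 1 was the highest Nutlin-3 library in 11 of the 16. How often these libraries ranked so over all genes was not counted, so this ranking cannot be called a trait of collagen genes. Without DMSO replicate 1, COL4A3 and COL4A4 still rose, by 1.18 and 1.13 on the log2 scale, and the part of that library in the size of the changes was not tested further. Across the 20 tested genes the Spearman rho of the log2 fold change was 0.171 with the log2 exon-based level and 0.319 with gene span. Neither value was tested, and both only describe genes that share the same libraries.

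Genes that make, cut, bind or degrade collagen were read from 5 lists, in RPKM as deposited, which compares a gene between groups but not genes with each other. Of 72 listed genes 71 matched an ID and 58 were tested, of which 41 rose, 5 fell and 12 did not pass (limma, adjusted p under 0.05). Over all genes tested 16.0% rose and 14.6% fell, and over the protein-coding ones 24.7% rose and 22.0% fell, as above. The same shares are the background for each list below. The median log2 fold change of the 58 was 0.36. Among 21 tested genes for folding and modifying collagen, 16 rose and 2 fell. P3H2, a prolyl 3-hydroxylase that acts on type IV collagen, was at 0.579 ± 0.0174 RPKM in Nutlin-3 and 0.336 ± 0.0163 in DMSO (SD, n = 3 each, log2 fold change 0.77, adjusted p = 0.000532). PLOD2, a lysyl hydroxylase that prepares crosslinks, was 1.62 times as high in Nutlin-3 (0.69, adjusted p = 0.000316). FKBP14, a prolyl isomerase of the endoplasmic reticulum, was 1.52 times as high (0.60, adjusted p = 0.000326). TMEM38B, an ion channel of the endoplasmic reticulum, fell to 65.3% of the DMSO mean (-0.58, adjusted p = 0.00156), and COLGALT1, which adds galactose to hydroxylysine, to 91.1% (-0.13, adjusted p = 0.0202). The COLGALT1 call was lost without Nutlin-3 replicate 2, DMSO replicate 2 or DMSO replicate 3, with adjusted p up to 0.0729.

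Of 10 tested genes for procollagen cleavage and crosslinking, 6 rose and 1 fell. ADAMTS14, which removes the amino-terminal propeptide, was at 1.12 ± 0.0232 RPKM in Nutlin-3 and 0.512 ± 0.0179 in DMSO (SD, n = 3 each, log2 fold change 1.11, adjusted p = 0.000147, limma). LOXL1, a lysyl oxidase that crosslinks matrix, was 1.46 times as high in Nutlin-3 (0.55, adjusted p = 0.000689). LOXL4, another lysyl oxidase, with 19 to 67 reads per library, was 2.11 times as high (0.94, adjusted p = 0.0413). That call was lost without any 1 library other than DMSO replicate 2, with adjusted p up to 0.131. PCOLCE, which speeds the removal of the carboxy-terminal propeptide, fell to 69.8% of the DMSO mean (-0.51, adjusted p = 0.00660).

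Of 9 tested collagen-binding receptors, 7 rose and 0 fell. At an unadjusted p under 0.05, 0 were lower in limma or limma voom, again with no share over all genes counted. Leaving out each library in turn, 5 to 6 receptors rose. The call of DDR2 was lost in each omission (adjusted p from 0.0566 to 0.108, limma). For ITGA2 the adjusted p was between 0.0314 and 0.108. ITGA11, the alpha subunit of an integrin that binds type I collagen, was at 4.35 ± 0.0487 RPKM in Nutlin-3 and 2.14 ± 0.191 in DMSO (SD, n = 3 each, log2 fold change 1.03, adjusted p = 0.000519, limma). ITGA10, another collagen-binding integrin subunit, was 1.62 times as high in Nutlin-3 (0.70, adjusted p = 0.00332), and DDR1, a receptor tyrosine kinase for collagen, 1.61 times (0.69, adjusted p = 0.000966). Among 9 tested genes for degradation and its inhibitors, 6 rose and 1 fell. MMP14, a membrane-bound collagenase, was at 98.8 ± 1.64 RPKM in Nutlin-3 and 59.8 ± 1.65 in DMSO (0.72, adjusted p = 0.000161). The protease genes CTSK and MMP2 rose by 0.61 (adjusted p = 0.000200) and 0.57 (adjusted p = 0.000636). TIMP4, an inhibitor of such proteases with 32 to 60 reads per library, fell to 66.1% of the DMSO mean (-0.56, adjusted p = 0.0177). Without Nutlin-3 replicate 1, Nutlin-3 replicate 2 or DMSO replicate 3 its adjusted p was between 0.0560 and 0.0600.

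Of 9 tested genes whose products bind collagen fibrils or networks, 6 rose and 1 fell. FN1, which encodes fibronectin, was at 231 ± 4.80 RPKM in Nutlin-3 and 131 ± 7.5 in DMSO (SD, n = 3 each, log2 fold change 0.82, adjusted p = 0.000356, limma). SPARC, a collagen-binding matrix protein, rose by 0.81 (adjusted p = 0.000161), and FMOD, a small proteoglycan on fibrils with 33 to 80 reads, by 0.91 (adjusted p = 0.000885). NID1, which links laminin to type IV collagen, went against the type IV genes and fell to 62.1% of the DMSO mean (-0.68, adjusted p = 0.000290). Its paralog NID2, chosen after its values were seen, was 1.28 times as high in Nutlin-3 (0.36, adjusted p = 0.0020).

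**Figure D5:**
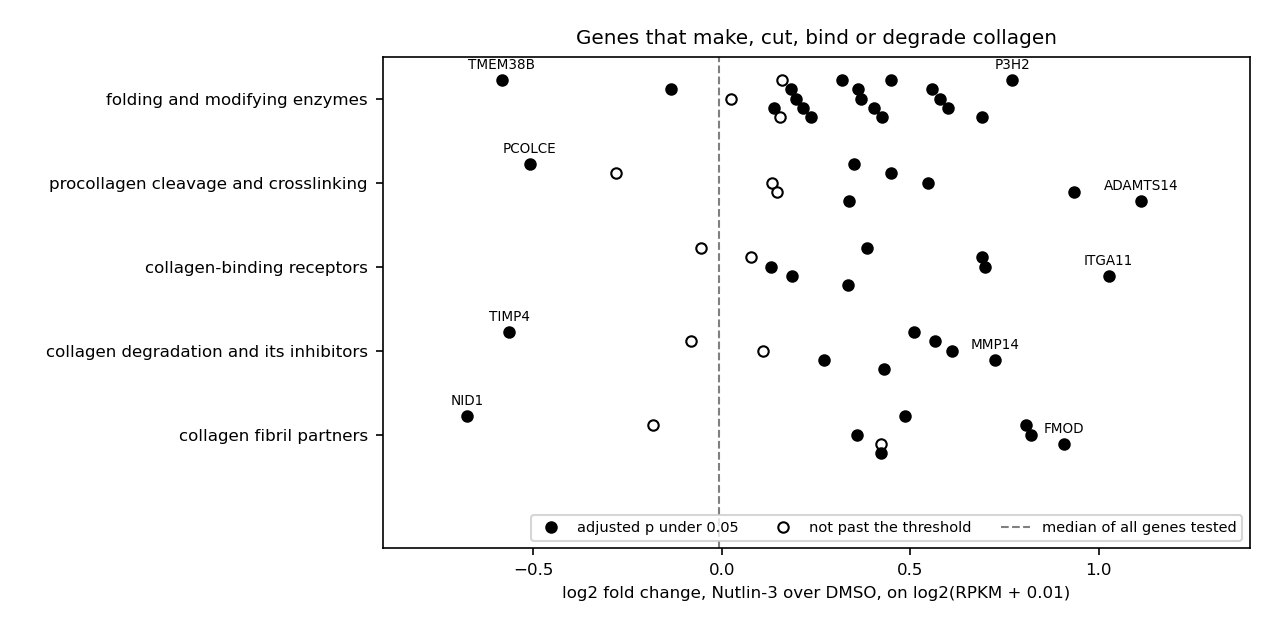
Log2 fold change, Nutlin-3 over DMSO, on log2(RPKM + 0.01), of the 58 tested genes in 5 lists around collagen. Filled points passed an adjusted p of 0.05, names mark the outermost of these in each list, and the dashed line is the median of all genes tested (-0.0066). In each list more genes lie right of the line than left of it, with TMEM38B, PCOLCE, TIMP4 and NID1 on the left.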

How the data were processed

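The authors deposited a table of RPKM values with 1 column per library, and 0 columns were left unmapped. The build hg19 and the tools edgeR, TopHat2 and CASAVA 1.8.2 are listed in the submitters' processing notes, with no role. For the counter, the annotation and the use of strand nothing is given in the sources used here. Low values were whole reads within 0.01 in 88.2% of cases when multiplied by the GENCODE 29 gene span, and in 29.1% with the merged exon length, so the span was the length. Reads were recovered for 27538 genes from the span and for 8797 from ratios between libraries, which can be too low by a whole factor. Of the 44 collagen genes 35 were of the first kind and 9 of the second, among them COL4A1, COL4A2, COL4A4, COL4A6, COL5A2, COL11A1 and COL13A1. For these 9, levels, sums and shares over genes carry that doubt, while the fold change of a single gene on RPKM does not. The library sizes behind the RPKM, also used for exon-based levels and limma voom, were 30.4 to 35.8 M in Nutlin-3 and 29.8 to 42.3 M in DMSO. They were under the recovered reads in each Nutlin-3 library and above them in each DMSO library. Levels and fold changes thus lie higher in Nutlin-3 than with recovered totals. No fit used the recovered totals, and limma voom shares the authors' sizes. The weight of this in small rises, such as that of COL7A1, was therefore not tested. With each library rescaled by the median ratio of its genes to their means, 16 of 20 collagen genes rose and 0 fell. Over the 26142 genes of that fit, 16.0% rose and 14.8% fell.

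The main test was limma 3.58.1 (R 4.3.3) on log2(RPKM + 0.01), for genes averaging 0.02 RPKM or more (trend, group as the only term, Benjamini-Hochberg over all 26155 genes). Fold changes on that scale understate those of low genes, and other folds and percentages are ratios of means. As an alternative, limma voom was run on recovered reads for genes averaging 10 reads or more. The code was tested on simulated data. Replicate numbers were the same in both groups, and their pairing was checked. GENCODE 29 is on another build than the deposited table, so it served only for names, lengths and overlaps. Markers of the retinal pigment epithelium and of epithelial, mesenchymal, endothelial and leukocyte cells were read from the same table.

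Values in every library are given, by rule, for the highest member of each class, members that rose by at least 0.5 and partner chains. From each pathway list up to 3 rises and 2 falls are named. The members, lists, tests and rule were chosen with earlier results of these data known.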

Additional observations from a re-analysis of the deposited data

How the results depend on the processing

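Of the 16 collagen genes that rose, 10 kept their call in every alternative that tested them (COL4A1 to COL4A5, COL6A1, COL11A1, COL1A1, COL5A2 and COL8A1). Under a filter of 0.5 RPKM on the mean, with pseudocount 0.5, 8 were tested and 7 rose, where 29.1% of 12212 genes rose and 22.5% fell, and 2 pathway genes fell in place of 5. Leaving out each library in turn, 11 to 13 collagen genes and 35 to 39 pathway genes rose, and 3 to 5 pathway genes fell, 3 of them without Nutlin-3 replicate 2 and 3 without DMSO replicate 3. Fewer libraries give fewer calls over all genes as well, 2899 to 3587 that rose and 2831 to 3129 that fell. On recovered reads with limma voom, 17 of 27 collagen genes rose, the 16 and COL4A6, and 0 fell. Over all 20854 genes of that fit, 25.5% rose and 23.9% fell. With quantile normalization, which moved the median of all genes to 0.038, 15 rose, all but COL7A1. Over all 26155 genes of that fit, 17.3% rose and 13.5% fell. With no filter, 13 of 33 collagen genes rose and 0 fell, with COL11A2, COL18A1 and COL27A1 lost. Over all 36363 genes of that fit, 10.6% rose and 9.80% fell. Same-numbered libraries did not deviate together (correlations -0.0117, -0.00902 and -0.0123). Over all pairs of a Nutlin-3 and a DMSO library the correlations were near 0, from -0.0204 to 0.0322. Values this small show no pairing by number but cannot say whether same-numbered libraries were handled together. With the replicate block 10 collagen genes rose, with COL7A1, COL8A2, COL11A2, COL16A1, COL18A1 and COL27A1 lost. Over all 26155 genes of that fit 2635 rose and 2360 fell, or 10.1% and 9.02%. The difference in COL4A5 over COL4A6 was between -0.15 and 0.25 when a library was left out, turning to -0.011 without Nutlin-3 replicate 1, -0.020 without Nutlin-3 replicate 3 and -0.15 without DMSO replicate 1. That in COL8A1 over COL8A2 was between -0.14 and 0.012, its upper end without Nutlin-3 replicate 3. The cause was not tested. Depth limits the genes under 10 reads per library.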
